A study of Mus musculus with 2 samples.

Results

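Transforming growth factor beta (TGF-beta) activation and SMAD signalling were followed through 10 genes of the 31056 features in each of 2 single-cell RNA matrices. The members were the rows whose symbol is Lrrc32, Tgfb1, Tgfbr1, Tgfbr2, Smad2, Smad3, Smad4, Smad7, Ski or Skil, and all 10 had reads in both matrices. The study sorted CD4+ CD25+ T cells, a surface phenotype that enriches regulatory T (Treg) cells, from healthy female Myc fl/fl Foxp3 Cre/WT mice, and loaded YFP+ and YFP- cells together in 1 droplet lane per tissue. There is 1 library from lymph node and 1 from spleen, and every cell in both carries floxed Myc, whether or not it uses the Cre allele. Foxp3 is X-linked, so Treg cells that delete Myc and Treg cells that keep it live in the same female animals. Cre is driven from Foxp3 and so acts where that allele is used. The YFP status of a cell, the age and number of the mice and any pooling of animals are unstated in the sources used here, and no library from mice with unfloxed Myc was analysed.

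TGF-beta is made as a latent complex that cannot bind its receptor until it is released. Lrrc32 encodes GARP, a surface protein of activated Treg cells and platelets that tethers latent TGF-beta for release by integrins. Active ligand, here Tgfb1, brings together the type II receptor kinase Tgfbr2 and the type I receptor kinase Tgfbr1. The receptor complex phosphorylates Smad2 and Smad3, which enter the nucleus with their common partner Smad4. Smad7 binds the receptor and blocks it, and Ski and Skil are corepressors that hold SMAD complexes silent on DNA; Smad7 and Skil are themselves induced by the pathway. In T cells the pathway promotes Itgae, the CD103 integrin chain of tissue-dwelling cells, and restrains Klrg1, a receptor of effector cells.

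The receptor genes are shown by sequence because their transcripts took different courses across the gated cells. The RefSeq promoter table on GRCm38.p6 matched 5 of the 10 members: Tgfb1, Tgfbr1 (at 2 start sites), Tgfbr2, Smad3 and Ski. The lines give the 250 bases before the start of Tgfbr1 (chr4:47352972-47353221, plus strand) and of Tgfbr2 (chr9:116175364-116175613, minus strand), 5′ to 3′ along each gene, with no annotated exon of the same strand inside. Capitals mark a CAGAC match on either strand, the short box that SMAD proteins bind.
Tgfbr1 promoter: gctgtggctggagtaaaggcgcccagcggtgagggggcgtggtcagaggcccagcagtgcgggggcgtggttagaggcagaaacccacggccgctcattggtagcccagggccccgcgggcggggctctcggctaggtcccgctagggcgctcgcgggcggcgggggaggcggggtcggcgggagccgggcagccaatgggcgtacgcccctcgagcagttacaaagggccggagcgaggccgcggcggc
Tgfbr2 promoter: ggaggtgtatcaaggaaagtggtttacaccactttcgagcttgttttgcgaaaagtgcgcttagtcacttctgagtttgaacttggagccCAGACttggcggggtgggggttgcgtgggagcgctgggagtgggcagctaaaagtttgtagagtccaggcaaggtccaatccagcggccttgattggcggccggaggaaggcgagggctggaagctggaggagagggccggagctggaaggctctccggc
The Tgfbr1 window was 74.8% G and C, against 58.4% for Tgfbr2. Tgfbr2 held 1 CAGAC match, at base -160 from the start, and this Tgfbr1 window held 0. The window before the other Tgfbr1 start site (chr4:47385966-47386215) was 52.8% G and C and held 1 match, at base -203, so the contrast with Tgfbr2 depends on the start site taken. The 5 letters or their reverse complement GTCTG occurred in 42.2% of 32851 mouse promoters of that length, so a match is only a description. The forkhead letters GTAAACA or TGTTTAC, searched in both windows, had 0 matches, and 3.17% of promoters held them. By the gene annotation of GRCm38 (GENCODE M21), Tgfbr1 spans chromosome 4 from 47353222 to 47414931 on the plus strand, and Tgfbr2 spans chromosome 9 from 116084293 to 116175360 on the minus strand. Lrrc32 spans chromosome 7 from 98489283 to 98502181 on the plus strand. The counts are 3′ tags summed over a whole gene, so they do not tell start sites or isoforms apart.

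In lymph node there were 5079 barcodes and 13324306 unique molecular identifiers (UMIs, counted molecules), and in spleen 6840 and 16868549. A minimum of 500 detected genes and a maximum of 10% mitochondrial UMIs per cell left 4820 lymph node cells (median 2031 UMIs) and 6543 spleen cells (median 1935). The 2 libraries shared 53 barcodes, 45 of them among kept cells, and no cell was removed for this. The 5 T cell and 6 Treg markers were all detected in both libraries, at summed levels of 4115 and 1838 CPM (UMIs of the gene per 1000000 UMIs of the class) in lymph node and 4223 and 2057 CPM in spleen. Other cell types were present: the 4 B cell markers summed to 158 and 114 CPM, and the 5 erythroid markers to 327 CPM in lymph node against 0.961 CPM in spleen. Of 5 platelet markers, Ppbp and Gp9 had 0 UMIs in both libraries and Pf4 had 0 in spleen, with the list at 10.6 and 7.03 CPM. Myc, the floxed gene, was at 30.9 CPM in lymph node and 37.9 CPM in spleen; which exons are floxed is unstated, so its 3′ tag need not report deletion. Neither EYFP (2 UMIs, both in spleen) nor CRE (0 UMIs) could sort the cells.

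With 1 library per tissue there are no replicates and no test between tissues or gates. All values below are UMIs summed over the cells of a class as CPM, with 95% intervals that cover counting error only; reads of cells in 1 library share its mice, sort and droplet run. A gene was set against others by a fold of 1.5 either way, among features with at least 20 UMIs expected in the smaller class if the levels were equal. A summed level cannot tell more cells with the transcript from more transcript per cell.

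Between the tissues, the members' transcripts were mostly higher in spleen, and by less than 1.5-fold for 8 of the 10. Skil was higher and Smad3 lower past that fold. Of 10380 features tested, 6.52% passed the fold, 2.64% higher and 3.88% lower, so 2 of 10 members is a small count to read against that background. The members' median log2 ratio of spleen over lymph node was 0.24, against 0.00 for all features tested.

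On the activation side, Lrrc32 was at 53.9 CPM (50.02 to 58.1) in lymph node, against 62.4 CPM (58.7 to 66.4) in spleen, a ratio of 1.16 (1.05 to 1.28). Over 9 alternatives that ratio ran from 1.003, within cells with a Foxp3 or ICRE UMI, to 1.16. Tgfb1, the ligand, was at 197 CPM (189 to 204) and 245 CPM (237 to 252), 1.24-fold higher in spleen (1.18 to 1.31). Over all kept cells both genes were a little higher in spleen, with intervals that did not overlap. Tgfbr1 was at 35.5 CPM (32.4 to 38.9) in lymph node and 48.1 CPM (44.8 to 51.5) in spleen, a ratio of 1.35 (1.20 to 1.52). Tgfbr2 was level, at 43.4 CPM (39.9 to 47.2) and 43.2 CPM (40.1 to 46.5), a ratio of 0.995 (0.890 to 1.11). The receptor chains thus stood in a different balance in the 2 libraries.

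Among the signal carriers, Smad2 was at 25.4 CPM in lymph node and 30.8 CPM in spleen, a ratio of 1.21 (1.05 to 1.39). Smad3 went the other way, with 152 UMIs and 11.6 CPM (9.87 to 13.6) against 124 UMIs and 7.45 CPM (6.20 to 8.88), 1.56-fold lower in spleen (1.22 to 1.997). Smad4 was also lower in spleen, at 14.5 CPM against 19.5 CPM (1.34-fold, 1.12 to 1.61). Smad2 and Smad3, which answer the same receptor, were therefore higher in opposite libraries. The negative regulators were all higher in spleen. Smad7 was at 61.3 CPM (57.1 to 65.7) and 91.5 CPM (87.0 to 96.2), a ratio of 1.49 (1.37 to 1.63) that fell just short of the fold. Over 9 alternatives that ratio ran from 1.40 to 1.54, past the fold in some. Skil was at 32.9 CPM (29.9 to 36.2) and 53.5 CPM (50.1 to 57.2), a ratio of 1.63 (1.45 to 1.83). Ski, its close relative, was at 41.4 and 47.5 CPM, a ratio of 1.15 (1.03 to 1.28). With the 8 lymph node cells of 5 or more haemoglobin UMIs left out, Skil was 1.61-fold higher and Smad3 1.55-fold lower.

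**Figure D1:**
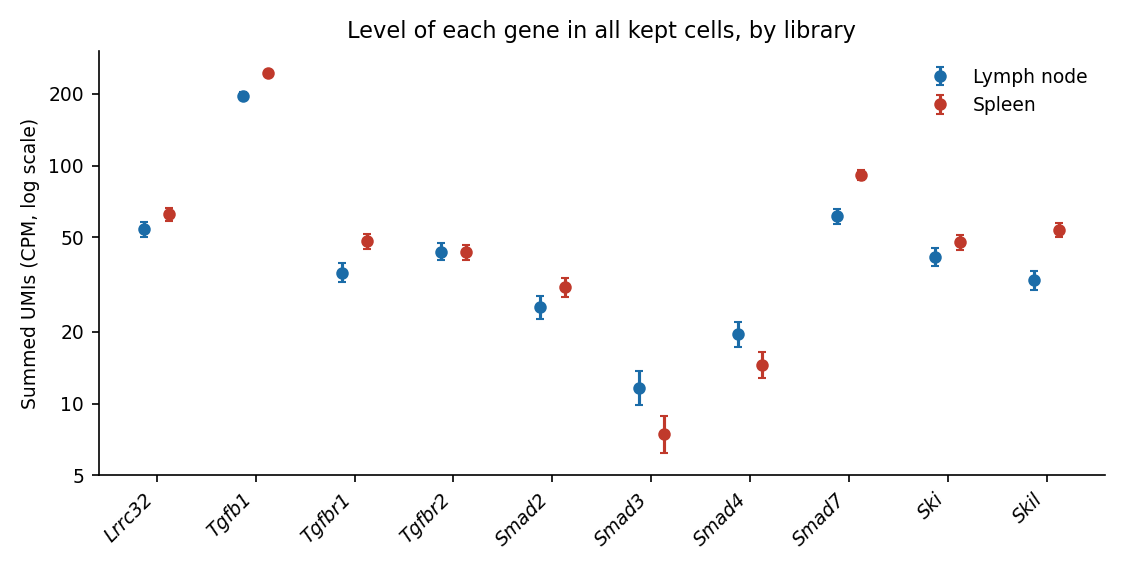
Level of each of the 10 genes in all kept cells of the lymph node and the spleen library, as summed UMIs in CPM on a log axis; points are 1 library each and bars are exact Poisson 95% intervals of counting error. Skil and Smad7 stand apart upwards in spleen, Smad3 and Smad4 downwards, and Tgfbr2 is level.

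Tgfb1 was caught in 35.9% of cells in lymph node and 39.7% in spleen, and Smad3 in 3.05% and 1.88%. With every cell thinned to 1200 UMIs (252 cells of the lymph node and 525 of the spleen were shallower and dropped), these shares were 20.3% and 25.2% for Tgfb1 and 1.40% and 0.831% for Smad3. Lrrc32 was caught in 11.04% and 12.2% of cells, or 6.33% (5.64 to 7.07) and 7.18% (6.54 to 7.86) after thinning. Cells with at least 2 of 4 B cell markers were taken as a type that should lack Lrrc32. At the same depth they gave a background share of 1.83% (0.223 to 6.47) of 109 cells in lymph node. In spleen 1 of 100 such cells had a Lrrc32 UMI (interval in percent 0.0253 to 5.45). Their median depths before thinning were 3092 and 2295 UMIs, and doublets were not called, so they may hold RNA of other cells. The share of all cells lay above that background without overlap in spleen, whereas the lymph node intervals overlapped.

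Other parts of the pathway were set between the tissues by list. Of 12 latency and activation genes, 5 could be tested and 0 passed the fold; of 26 regulators of SMADs and receptors, 24 could be tested and 0 passed. Of 12 other receptors of the family, 5 could be tested and 2 were higher in spleen, Acvrl1 at 6.91 against 3.22 CPM (2.15-fold, 1.496 to 3.14) and Acvr1c at 2.52 against 1.61 CPM (1.57-fold, 0.908 to 2.79). Of 9 genes that TGF-beta lowers in T cells, 3 were lower in spleen: Eomes and Tbx21, transcription factors of cytotoxic and helper cells, and Ifng, the cytokine interferon gamma. Eomes was at 2.04 against 5.13 CPM, Tbx21 at 1.56 against 3.68 CPM and Ifng at 5.17 against 9.73 CPM. The natural killer or innate lymphoid markers summed to 46.0 CPM in lymph node and 29.99 CPM in spleen, and their part in these values was not tested. Of 15 genes that TGF-beta induces, 11 could be tested; the chemokine receptor Ccr8 was higher in spleen, at 4.87 against 2.68 CPM (1.82-fold, 1.21 to 2.78), and the cell cycle inhibitor Cdkn1a lower, at 3.85 against 5.90 CPM. These 7 genes were picked out after their values were seen.

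The gated classes differ in depth, and the members' levels moved with depth. Cells with a Foxp3 UMI had a median of 2859.5 UMIs in lymph node and 2941 in spleen, whereas cells with an ICRE UMI had 1605.5 and 1635. Between the shallowest and the deepest of 4 equal groups of lymph node cells by UMIs, Smad7 went from 94.4 to 41.6 CPM, Lrrc32 from 76.9 to 41.9 CPM and Skil from 48.8 to 22.2 CPM. The spleen values were 122 to 72.9 CPM for Smad7, 73.6 to 47.2 CPM for Lrrc32 and 65.4 to 46.2 CPM for Skil. In both libraries all 10 members were lower in the deepest group than in the shallowest, with the smallest ratio for Tgfb1. Ratios called depth-weighted below give the comparison cells the same spread of UMIs per cell as the gated cells.

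Cells were first gated by Foxp3, the Treg transcription factor, and by ICRE, a sequence that the authors added to the gene table. What that sequence is was not stated, and taking it to tag transcripts of the Cre allele is an assumption. The classes were cells with Foxp3 and no ICRE UMI (982 in lymph node, 1195 in spleen), with ICRE and no Foxp3 UMI (354 and 505) and with neither (3459 and 4799). A cell of the last class may still express either gene, and both gates use that class as the comparison, so their ratios share its cells.

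Cells with a Foxp3 UMI differed little from cells with neither in the 10 genes. In both libraries 0 of 10 members passed the fold, where 6.84% of 8332 features did in lymph node (3.29% higher, 3.55% lower) and 9.28% of 8721 in spleen (5.13% higher, 4.15% lower). Lrrc32 was at 63.9 CPM (55.8 to 72.9) against 47.5 CPM (43.1 to 52.3) in lymph node, a ratio of 1.35 (1.14 to 1.59). In spleen it was at 60.7 against 59.9 CPM, a ratio of 1.01 (0.875 to 1.17). The lymph node intervals did not overlap and the spleen intervals overlapped. Depth-weighted, the ratios were 1.67 in lymph node, past the fold, and 1.37 in spleen. Smad7 was lower in Foxp3 cells, at 48.2 against 63.4 CPM in lymph node (ratio 0.761, 0.637 to 0.906) and at 82.0 against 93.5 CPM in spleen (0.877, 0.776 to 0.990). Depth-weighted, these became 0.974 and 1.14, so that the spleen value lay on the other side of 1. Tgfbr2 in spleen was at 34.1 against 46.5 CPM, a ratio of 0.733 (0.607 to 0.881). Markers of several other cell types were lower in Foxp3 cells. The 4 B markers summed to 70.8 CPM in lymph node Foxp3 cells against 189 CPM, and to 56.8 against 144 CPM in spleen. The natural killer or innate lymphoid markers summed to 10.3 against 63.5 CPM and 10.9 against 40.02 CPM, and the lymph node erythroid markers to 126 against 422 CPM. Their part in the values of this gate, including the other pathway genes, was not tested.

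Some genes of the other pathway lists, named for the size of their ratios, differed more between the same cells. Past the fold in lymph node were 0 of 5 latency and activation genes, 1 of 20 regulators and 1 of 9 induced genes. In spleen these counts were 1 of 5, 2 of 22 and 1 of 9. Gzmb, a granule protease counted in the list of genes that TGF-beta lowers, was at 50.2 CPM in lymph node Foxp3 cells against 16.0 CPM, and at 53.4 against 16.8 CPM in spleen. Il2, in the same list, was lower in Foxp3 cells, at 8.56 against 13.4 CPM and 8.18 against 17.1 CPM. Of that list, 7 of 9 genes could be tested; in lymph node 1 was higher and 2 lower past the fold, and in spleen 1 was higher and 1 lower. The lower members of this list in lymph node were Il2 and Id2, a helix-loop-helix inhibitor (153 against 256 CPM), while Klf2, which keeps T cells recirculating, was at 683 against 1019 CPM. Itgav and Itgb8, the chains of an integrin that frees TGF-beta from its latent complex, were at 18.3 against 14.4 and 13.4 against 9.41 CPM in lymph node. In spleen Itgav was at 18.9 against 12.02 CPM (1.57-fold, 1.18 to 2.08), past the fold, and Itgb8 at 12.7 against 10.3 CPM. Smurf2, a ubiquitin ligase that targets the receptors, was at 6.59 against 10.5 CPM in spleen. The related signal carriers Smad1 and Smad5 were at 7.71 against 9.30 and 5.995 against 8.96 CPM in lymph node. In spleen they were at 5.91 against 8.88 CPM, which is lower past the fold for Smad1, and at 5.45 against 7.72 CPM; all 4 intervals of the ratio include 1. Furin, the protease that cuts the TGF-beta precursor, was at 13.4 (lymph node) and 11.8 CPM (spleen), against 15.9 and 13.5 CPM.

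Cells with an ICRE UMI had more Lrrc32 than cells with neither transcript, in both libraries. In lymph node Lrrc32 was at 89.6 CPM (68.1 to 116) against 47.5 CPM, 1.89-fold higher (1.41 to 2.49). In spleen it was at 99.8 CPM (80.6 to 122) against 59.9 CPM, 1.66-fold higher (1.33 to 2.07). The intervals of the levels did not overlap in either library. Of the members tested, 3 of 7 were higher past the fold in lymph node and 1 of 8 in spleen, against 10.2% of 3766 features (4.99% higher, 5.26% lower) and 7.25% of 4853 (3.54% higher, 3.71% lower). The other lymph node members were Tgfbr1, at 51.0 against 33.0 CPM (1.55-fold, 1.04 to 2.22), and Smad7, at 100.4 against 63.4 CPM (1.58-fold, 1.21 to 2.05). In spleen Tgfbr1 was at 49.9 against 48.2 CPM (1.04, 0.751 to 1.40) and Smad7 at 119 against 93.5 CPM (1.27, 1.04 to 1.55). Depth-weighted, Lrrc32 was 1.58-fold higher in lymph node and 1.48-fold in spleen, and the lymph node ratios of Tgfbr1 and Smad7 were 1.32 and 1.28. Within cells with 0 Il2ra UMIs Lrrc32 was 1.71-fold and 1.56-fold higher. The 5 natural killer or innate lymphoid markers were lower in ICRE cells, at 7.73 (lymph node) and 5.31 CPM (spleen), against 63.5 and 40.0 CPM, and their part in the result was not tested.

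Smad4 was at 35.5 against 19.0 CPM in lymph node, from 23 UMIs in ICRE cells and below the minimum of 20 expected UMIs, so it was not counted. Tgfb1 was at 221 (lymph node) and 275 CPM (spleen), against 199.98 and 238 CPM, ratios of 1.10 (0.925 to 1.31) and 1.15 (1.01 to 1.31). Tgfbr2 had ratios of 0.936 (0.609 to 1.38) and 1.05 (0.759 to 1.42). Of the genes that TGF-beta lowers in T cells, Klf2 was 1.86-fold and 1.70-fold higher in ICRE cells, and S1pr1, the receptor by which T cells leave lymphoid tissue, was 1.93-fold and 1.52-fold higher. Id2 was lower, at 105 (lymph node) and 106 CPM (spleen), against 256 and 203 CPM. Runx3, a transcription factor in the list of induced genes, was at 18.5 against 33.4 CPM and 18.0 against 28.1 CPM. Of that list 4 genes could be tested in each library, and the other 3, Tgif1, Id3 and Runx1, had ratios above 1 in both. The log2 ratios were 0.46 and 0.39 for Id3 and 0.40 and 0.13 for Runx1. Nrros, a relative of Lrrc32 that tethers latent TGF-beta on myeloid cells, was at 74.2 against 46.5 CPM in lymph node (1.60-fold, 1.16 to 2.16) and at 54.1 against 41.4 CPM in spleen (1.31, 0.960 to 1.75). Tgif1, a corepressor of SMAD complexes, was at 52.5 against 31.1 CPM in lymph node (1.69-fold, 1.15 to 2.42) and 38.2 against 30.5 CPM in spleen.

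Set against each other directly, ICRE cells had more Lrrc32 and more Smad7 than Foxp3 cells. For Lrrc32 the ratio was 1.40 (1.03 to 1.88) in lymph node and 1.64 (1.29 to 2.09) in spleen, and depth-weighted it was 1.14 and 1.63. Smad7 was at 100.4 against 48.2 CPM in lymph node, 2.08-fold higher (1.54 to 2.79), and at 119 against 82.0 CPM in spleen, 1.45-fold higher (1.16 to 1.80). Depth-weighted, the Smad7 ratios were 1.48 and 1.21. Skil was 1.68-fold higher in lymph node (1.08 to 2.53), and depth-weighted 0.975, the opposite direction; in spleen its ratio was 1.04 (0.752 to 1.41). Past the fold were 2 of 7 members in lymph node and 1 of 8 in spleen, where 18.2% of 3763 features (9.62% higher, 8.58% lower) and 19.3% of 4911 (10.3% higher, 9.04% lower) passed. If ICRE tags the Cre allele, allele and cell state cannot be told apart in this comparison. Of all cells with a Foxp3 UMI, 10.1% (lymph node) and 10.0% (spleen) had a Klrg1 UMI and 6.85% and 18.1% an Itgae UMI. Of all cells with an ICRE UMI, 1.06% and 0.911% had Klrg1 and 0.528% and 1.46% Itgae. The part of these cells in the ratios was not tested. Gzmb had 1 UMI in the ICRE cells of each library, against 50.2 and 53.4 CPM in Foxp3 cells. Id3, a helix-loop-helix inhibitor induced by SMADs, was 1.52-fold and 1.91-fold higher in ICRE cells. Runx3, also in the induced list, was lower, with log2 ratios of -1.08 and -0.87. Of that list, 3 of 4 genes tested in lymph node were higher past the fold and 1 lower. In spleen 1 of 5 was higher and 2 lower.

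Lrrc32 was higher in cells with UMIs of Il2ra, which encodes CD25, a chain of the receptor for interleukin-2. In lymph node, cells with 0, 1, 2 and 3 or more Il2ra UMIs had Lrrc32 at 44.5 CPM (40.3 to 49.0), 69.5 CPM (59.5 to 80.5), 79.8 CPM (62.3 to 101) and 124 CPM (90.5 to 166). In spleen the levels were 46.0 CPM (42.1 to 50.3), 78.9 CPM (70.2 to 88.3), 124 CPM (105 to 147) and 109 CPM (89.2 to 132). The step from 0 to 1 UMI was past counting error in both libraries. From 1 to 2 UMIs it was so in spleen only, and the 2 upper classes overlapped in both. At 2 or more against 0 Il2ra UMIs (347 against 3580 cells in lymph node, 638 against 4534 in spleen), Lrrc32 was 2.08-fold higher (1.68 to 2.56) and 2.55-fold higher (2.18 to 2.98). Depth-weighted, the ratios were 2.51 and 3.04, and over 10 alternatives they ran from 1.73 to 2.56 and from 2.01 to 3.04. Natural killer or innate lymphoid markers were lower in the Il2ra cells of lymph node, at 14.4 against 56.1 CPM, and of spleen, at 4.33 against 36.1 CPM; without cells with markers of other types the Lrrc32 ratios were 2.28 and 2.64.

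Lrrc32 was the 1 member past the fold in each library, of 9 tested, where 6.17% of 5724 features (2.94% higher, 3.23% lower) and 4.73% of 7089 (2.06% higher, 2.67% lower) passed. Tgfb1 was 1.13-fold (0.990 to 1.29) and 1.20-fold (1.09 to 1.31) higher in Il2ra cells. Tgfbr1 was at 49.5 against 33.4 CPM in lymph node (1.48, 1.11 to 1.95) and 54.3 against 44.0 CPM in spleen (1.24, 0.997 to 1.52); depth-weighted, its ratios were 1.74, past the fold, and 1.39. Tgfbr2 was at 31.9 against 46.1 CPM in lymph node (0.692, 0.488 to 0.959) and 40.4 against 44.7 CPM in spleen (0.903, 0.708 to 1.14). Further along the pathway, Smad2 had ratios of 0.994 and 0.902, Smad7 of 0.831 and 0.983, Ski of 0.807 and 1.01, and Skil of 1.05 and 1.22. Smad4, the common partner, was at 14.4 against 21.4 CPM in lymph node, from 18 UMIs in Il2ra cells (ratio 0.670, 0.389 to 1.09), and at 14.4 against 15.3 CPM in spleen (0.941, 0.615 to 1.39). The list of induced genes and the list of lowered genes had 0 of 4 members each past the fold in lymph node; in spleen 1 of 7 induced genes, the corepressor Tgif1 (50.01 against 28.7 CPM), was higher and 1 of 5 lowered genes, Il2 (7.21 against 12.7 CPM), was lower. These 2 were named after their values were seen; in lymph node Tgif1 was at 22.3 against 31.4 CPM, and Il2 had too few UMIs to be tested. Hsp90b1, a chaperone of the latency and activation list, had ratios of 1.14 and 1.22, and the deubiquitinase Usp15 of the regulator list 1.29 and 1.19.

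Within each Foxp3 and ICRE class, Lrrc32 was also higher at 2 or more Il2ra UMIs than at 0, with intervals that overlapped for the spleen ICRE cells alone. In cells with neither transcript it was at 38.8, 71.5 and 76.0 CPM at 0, 1 and 2 or more Il2ra UMIs in lymph node, and at 44.4, 81.4 and 128 CPM in spleen. In Foxp3 cells the levels were 57.3, 62.7 and 100.01 CPM in lymph node, and 47.1, 55.1 and 104 CPM in spleen. In ICRE cells they were 66.4, 91.8 and 214 CPM in lymph node, the last from 17 UMIs in 40 cells (interval 124 to 342), and 69.3, 151 and 142 CPM in spleen. At 2 or more Il2ra UMIs the lymph node ICRE cells lay above those with neither transcript (57.3 to 99.0), while in spleen the 3 classes overlapped. After thinning, Lrrc32 was caught in 5.03% (4.32 to 5.82) of lymph node cells with 0 Il2ra and 11.4% (8.24 to 15.3) of those with 2 or more, and in spleen in 5.55% (4.87 to 6.29) and 12.8% (10.2 to 15.7). Unthinned, these were 8.83%, 23.3%, 8.87% and 25.9%.

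**Figure D2:**
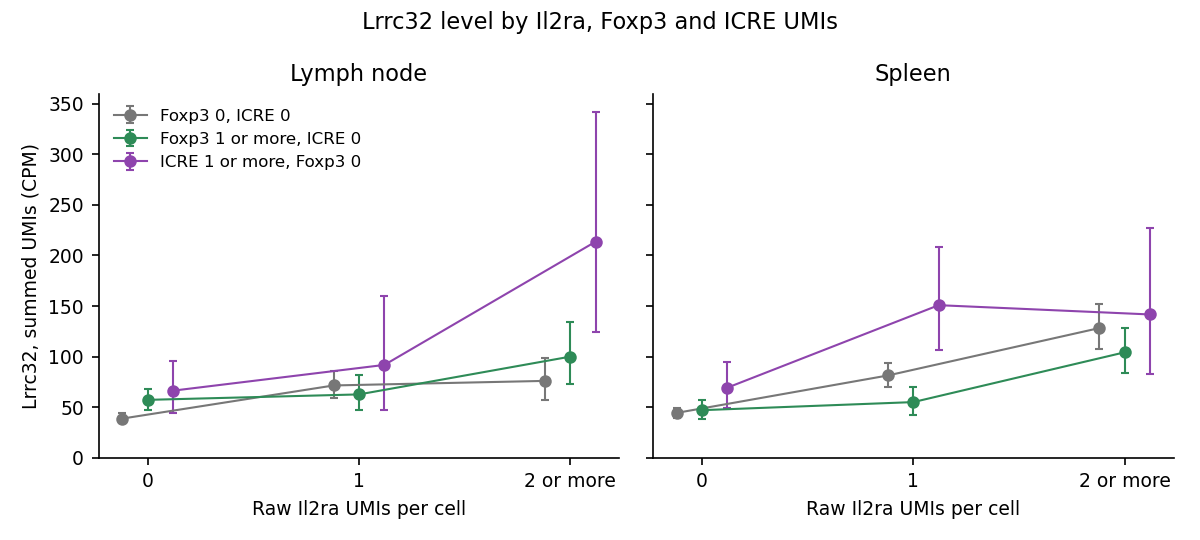
Lrrc32 level (summed UMIs in CPM, bars exact Poisson 95% intervals) against raw Il2ra UMIs per cell in cells with neither Foxp3 nor ICRE, with Foxp3 only and with ICRE only, in lymph node and spleen. In each class the level at 2 or more Il2ra UMIs was above that at 0; the highest point, 214 CPM, rests on 40 cells.

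Itgae and Klrg1 mark cells on the other side of the Lrrc32 range. Cells with a Klrg1 UMI (223 in lymph node, 229 in spleen) had Lrrc32 at 18.8 CPM (10.9 to 30.1) against 56.5 CPM (52.4 to 60.9) in lymph node, 3.01-fold lower (1.87 to 5.20). In spleen it was at 19.6 CPM (11.96 to 30.2) against 65.2 CPM (61.3 to 69.4), 3.33-fold lower (2.15 to 5.48). These levels were no higher than in B marker cells beyond counting error, where Lrrc32 was at 16.4 CPM (7.08 to 32.3) and 16.2 CPM (5.26 to 37.8). The B marker intervals are wide. The Itgae cells described below, at 34.9 CPM (22.1 to 52.4) and 31.7 CPM (24.3 to 40.6), overlapped them too. After thinning, 1.84% (0.504 to 4.65) and 1.42% (0.294 to 4.10) of Klrg1 cells had a Lrrc32 UMI, close to the shares of the B marker cells. Depth-weighted, Lrrc32 was 2.32-fold and 2.33-fold lower, and over 11 alternatives it was lower by 2.14 to 5.64 times and by 2.33 to 5.62 times. Treg markers summed to 3132 (lymph node) and 3997 CPM (spleen), against 1741 and 1930 CPM, so these cells were not poor in Treg transcripts. Without cells with markers of other types, the Lrrc32 ratios were 0.327 and 0.337.

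Other members differed less by Klrg1. Past the fold were Lrrc32 and Skil of 8 tested in lymph node and Lrrc32 and Smad7 of 8 in spleen, all lower, against 15.5% of 4744 features (9.21% higher, 6.24% lower) and 23.2% of 5113 (14.3% higher, 8.90% lower). Depth-weighted, 1 member was higher and 1 lower in each library, with Ski at 1.57 in lymph node and Tgfbr1 at 1.54 in spleen, and without the deepest 6% of cells this was so in spleen. Skil was at 16.6 against 34.2 CPM in lymph node, 2.06-fold lower (1.23 to 3.71), and at 39.2 against 54.5 CPM in spleen (0.719, 0.510 to 0.987). Smad7 was at 49.8 against 62.1 CPM in lymph node (0.801, 0.579 to 1.08) and at 59.7 against 93.6 CPM in spleen, 1.57-fold lower (1.21 to 2.06). Depth-weighted, Smad7 had ratios of 1.09 and 0.907, so its spleen value no longer passed the fold, and Skil had 0.640 and 0.860. Tgfb1, the ligand, was higher in Klrg1 cells, at 228 against 194 CPM (1.17, 1.01 to 1.35) and 306 against 241 CPM (1.27, 1.13 to 1.43). Smad2 was at 43.1 against 29.96 CPM in spleen (1.44, 1.03 to 1.96) and 29.9 against 25.1 CPM in lymph node (1.19, 0.771 to 1.76). Ski went opposite ways, with ratios of 1.37 (1.003 to 1.84) in lymph node and 0.729 (0.507 to 1.02) in spleen. Tgfbr2 had ratios of 0.965 (0.675 to 1.34) and 0.925 (0.658 to 1.27).

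Target genes of the pathway split in Klrg1 cells. Of the lowered list, 4 of 9 could be tested and 2 were higher and 1 lower in each library: Gzmb was at 204.5 against 11.03 CPM and 227 against 13.4 CPM, Id2 was 1.86-fold and 1.89-fold higher, and Klf2 was 1.57-fold and 1.51-fold lower. Of the induced list, 1 was higher and 1 lower in each library. Runx3 was at 61.9 against 32.0 CPM and 68.5 against 26.4 CPM, and Id3 was at 61.9 against 154 CPM and 74.4 against 203 CPM. Hsp90b1, the chaperone that folds GARP and integrins, was at 253 against 145 CPM and 275 against 150 CPM, where Lrrc32 itself was lower. Fkbp1a, a protein that binds the type I receptor, was 1.40-fold and 1.56-fold higher.

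Cells with an Itgae UMI (160 in lymph node, 488 in spleen) had less Lrrc32 and, in spleen, more Tgfbr1. In spleen Lrrc32 was at 31.7 CPM (24.3 to 40.6) against 66.5 CPM (62.4 to 70.8), 2.10-fold lower (1.62 to 2.76). In lymph node it was at 34.9 CPM (22.1 to 52.4) against 54.9 CPM (50.9 to 59.2), 1.57-fold lower (1.04 to 2.50), with intervals of the levels that overlap. Depth-weighted, it was 1.59-fold lower in spleen and 1.18-fold lower in lymph node, the latter within the fold. Tgfbr1 in spleen was at 74.6 CPM (63.0 to 87.7) against 44.5 CPM (41.2 to 48.1), 1.68-fold higher (1.39 to 2.01), and 1.95-fold higher depth-weighted. In lymph node Tgfbr1 was at 47.1 against 34.9 CPM, a ratio of 1.35 (0.905 to 1.94) that ran from 0.980 to 1.62 over the alternatives. Thinned shares of spleen cells with a Tgfbr1 UMI were 9.64% (7.12 to 12.7) with Itgae and 5.52% (4.95 to 6.12) over all cells, against 23.8% and 10.5% unthinned.

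The lymph node counts in this gate were small and moved. Lower past the fold were 3 of 7 members in lymph node, and in spleen 1 of 9 was lower and 1 higher, against 16.0% of 3813 features (8.52% higher, 7.47% lower) and 17.1% of 6918 (11.4% higher, 5.78% lower). Smad7 was at 39.5 against 62.4 CPM in lymph node, 1.58-fold lower (1.07 to 2.44), and at 67.5 against 94.7 CPM in spleen (0.712, 0.591 to 0.852); depth-weighted, its ratios were 0.867 and 0.927. Skil in lymph node rested on 14 UMIs, at 21.3 against 33.6 CPM (ratio 0.634, 0.343 to 1.08), and after thinning its ratio was 1.20, the opposite direction. In lymph node the 5 erythroid markers summed to 4099 CPM in Itgae cells against 126 CPM in the others, the 2 CD8 markers to 144 against 32.4 CPM and the 5 natural killer or innate lymphoid markers to 103 against 43.0 CPM. The part of the erythroid RNA in these values was not tested. Without the 431 lymph node cells with B, CD8, natural killer or platelet markers, 0 lymph node members passed the fold, with Lrrc32 at a ratio of 0.676. In spleen, erythroid markers were at 3.58 against 0.613 CPM, and without the 522 spleen cells with those other markers Lrrc32 had a ratio of 0.432 and Tgfbr1 one of 1.66. That filter does not remove cells by myeloid markers, which summed to 37.8 CPM in spleen Itgae cells against 17.4 CPM in the others. Their part in the spleen values of this gate was not tested.

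Itgae and Klrg1 overlapped: 18.4% of lymph node and 52.8% of spleen Klrg1 cells had an Itgae UMI. Among spleen cells with neither, Lrrc32 was at 68.0 CPM (63.8 to 72.4). With Itgae alone it was at 36.0 CPM (26.5 to 47.7), with Klrg1 alone at 15.0 CPM (5.51 to 32.7) and with both at 22.5 CPM (12.3 to 37.8). Each gate was thus low without the other in spleen. In lymph node the levels were 57.2, 38.7, 16.1 and 27.4 CPM, with only 11 and 6 Lrrc32 UMIs in the last 2 classes. Tgfbr1 in spleen was highest with Itgae alone, at 84.7 CPM (69.8 to 102), against 43.9 CPM (40.5 to 47.5) with neither, 67.6 CPM (44.5 to 98.3) with Klrg1 alone and 53.1 CPM (36.5 to 74.5) with both. Of target genes in the 2 libraries, Runx3 was 2.17-fold and 2.62-fold higher in Itgae cells, and Id3 was 2.79-fold and 2.52-fold lower. Hsp90b1 was 1.63-fold and 1.75-fold higher, and Klf2 was 1.53-fold and 1.76-fold lower. Id2, which like Klf2 is counted among the genes that TGF-beta lowers, had a ratio of 1.13 (0.958 to 1.32) in lymph node, where Itgae cells held 246 CPM, and was 2.58-fold higher in spleen (2.37 to 2.80), at 404 CPM. Gzmb, of the same list, was 18.8-fold higher in spleen (15.2 to 23.3). It could not be tested in lymph node and was named after its value was seen. Of spleen Itgae cells, 24.8% had a Klrg1 UMI, and their part in this ratio was not tested. Of the lowered list, 0 of 3 genes tested were higher and 1 lower in lymph node, and 2 of 5 higher and 1 lower in spleen. In spleen both integrin chains that free latent TGF-beta were higher in Itgae cells, Itgav at 25.04 against 12.4 CPM (2.02-fold, 1.44 to 2.78) and Itgb8 at 22.998 against 9.06 CPM (2.54-fold, 1.77 to 3.59). With Hsp90b1 they made 3 of the 5 latency and activation genes tested there; in lymph node Itgav and Itgb8 could not be tested, and both were named after their values were seen. Tab2, an adaptor of the SMAD-independent TAK1 branch, was at 54.7 (lymph node) and 43.4 CPM (spleen), against 33.9 and 30.9 CPM.

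**Figure D3:**
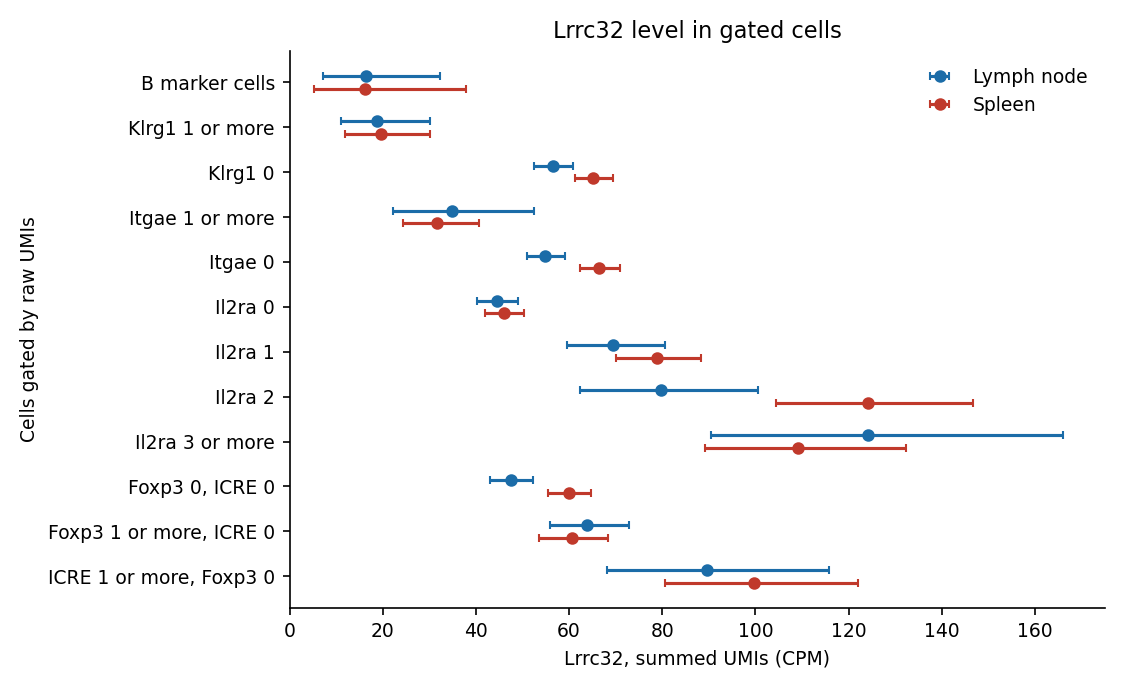
Lrrc32 level (summed UMIs in CPM) in classes of cells gated by raw UMIs, in lymph node and spleen; bars are exact Poisson 95% intervals, and classes of different genes share cells. Klrg1 cells lie at the level of B marker cells, below 20 CPM, and cells with ICRE or several Il2ra UMIs lie highest. Itgae cells lie above Klrg1 cells but also overlap the intervals of B marker cells.

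Over the classes in that plot, leaving out those with 0 Itgae and with 0 Klrg1 UMIs, the order of Lrrc32 was nearly the same in both libraries. It ran upwards from B marker cells, Klrg1 and Itgae cells through cells with 0 Il2ra and cells with neither Foxp3 nor ICRE, to Foxp3 cells and cells with 1 Il2ra UMI, and was highest with ICRE or with 2, 3 or more Il2ra UMIs. In lymph node 1 pair of neighbours in this order did not overlap, cells with neither transcript and Foxp3 cells. In spleen the pairs that did not overlap were Itgae cells with cells of 0 Il2ra, the latter with cells of neither transcript, and Foxp3 cells with cells of 1 Il2ra UMI. The cells with 0 Itgae, left out here, were at 54.9 CPM (50.9 to 59.2) in lymph node and 66.5 CPM (62.4 to 70.8) in spleen. In each library they overlapped both classes of the pair that includes Foxp3 cells. The classes share cells and libraries, so their order is a description.

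Medians over the list are given beside those of all features tested, without depth weighting. The members' median log2 ratio among those tested was -0.13 in lymph node and -0.03 in spleen by Foxp3, beside -0.01 in both for all features. By ICRE it was 0.53 and 0.09, beside 0.07 and 0.09, with ICRE cells as the shallower class. For ICRE against Foxp3 cells it was 0.44 and 0.09, beside 0.07 and 0.08. By Il2ra it was -0.01 and 0.01, by Itgae -0.03 and -0.09 (beside 0.04 and 0.11) and by Klrg1 0.04 and -0.28 (beside 0.08 and 0.09).

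**Figure D4:**
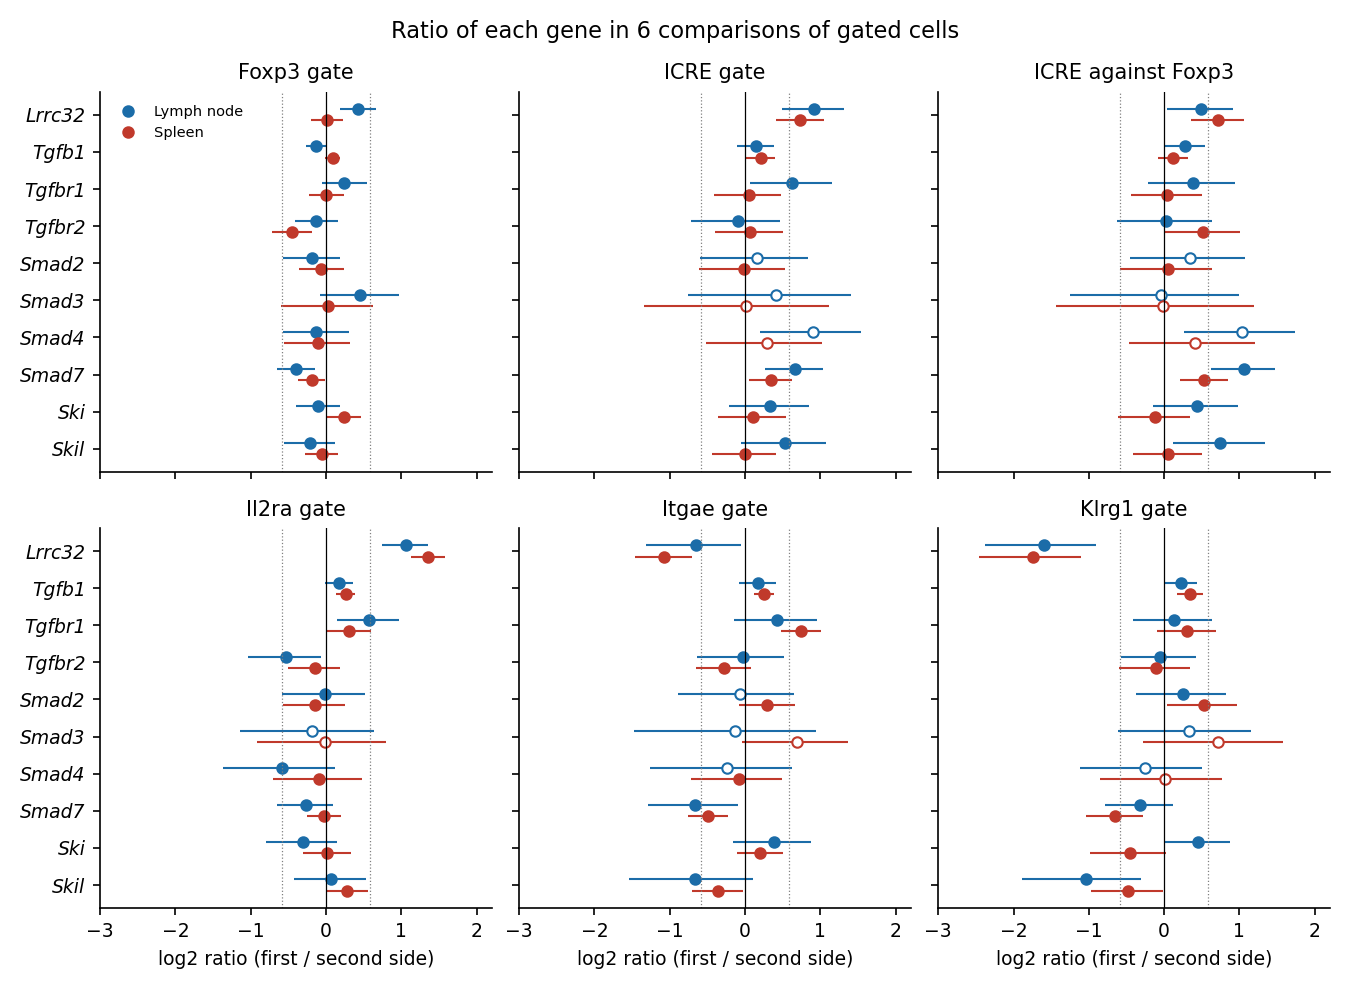
Log2 ratio of each gene in 6 comparisons of gated cells, lymph node and spleen side by side; bars are exact 95% intervals of counting error, dotted lines mark the 1.5-fold either way, and open points had under 20 expected UMIs. Lrrc32 lies to the right by Il2ra and ICRE and to the left by Itgae and Klrg1, in both libraries, while Tgfb1 stays within the dotted lines throughout.

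The balance of the receptor chains was examined as the share of Tgfbr1 among Tgfbr1 and Tgfbr2 UMIs, a measure chosen after the data were seen. It does not depend on the total UMIs of a class, but it can move with depth per cell, and compares transcripts of different capture. From the shallowest to the deepest group, spleen Tgfbr1 went from 54.2 to 43.0 CPM and Tgfbr2 from 56.6 to 35.0 CPM. In lymph node they went from 43.1 to 28.4 and from 46.3 to 37.0 CPM. Spleen Itgae cells had a median of 3121 UMIs, against 1879 without Itgae, and the part of depth in the shares was not tested. The share was 45.005% (41.9 to 48.1) in lymph node and 52.7% (50.1 to 55.2) in spleen, with no overlap. By Itgae it was 50.2% (47.5 to 53.0) at 0 and 67.3% (60.6 to 73.5) at 1 or more UMIs in spleen, and 44.5% (41.4 to 47.7) and 52.5% (39.1 to 65.7) in lymph node. By Il2ra it was 42.0% (38.4 to 45.7) at 0 and 60.8% (50.6 to 70.3) at 2 or more in lymph node, and 49.6% (46.4 to 52.8) and 57.4% (50.1 to 64.4) in spleen. Only the spleen Itgae and the lymph node Il2ra classes were apart without overlap in these 4 pairs. Foxp3 cells were at 58.7% (53.4 to 63.8) in spleen and 48.9% (42.9 to 54.9) in lymph node, against 50.9% (47.8 to 54.0) and 42.5% (38.8 to 46.3) in cells with neither transcript.

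**Figure D5:**
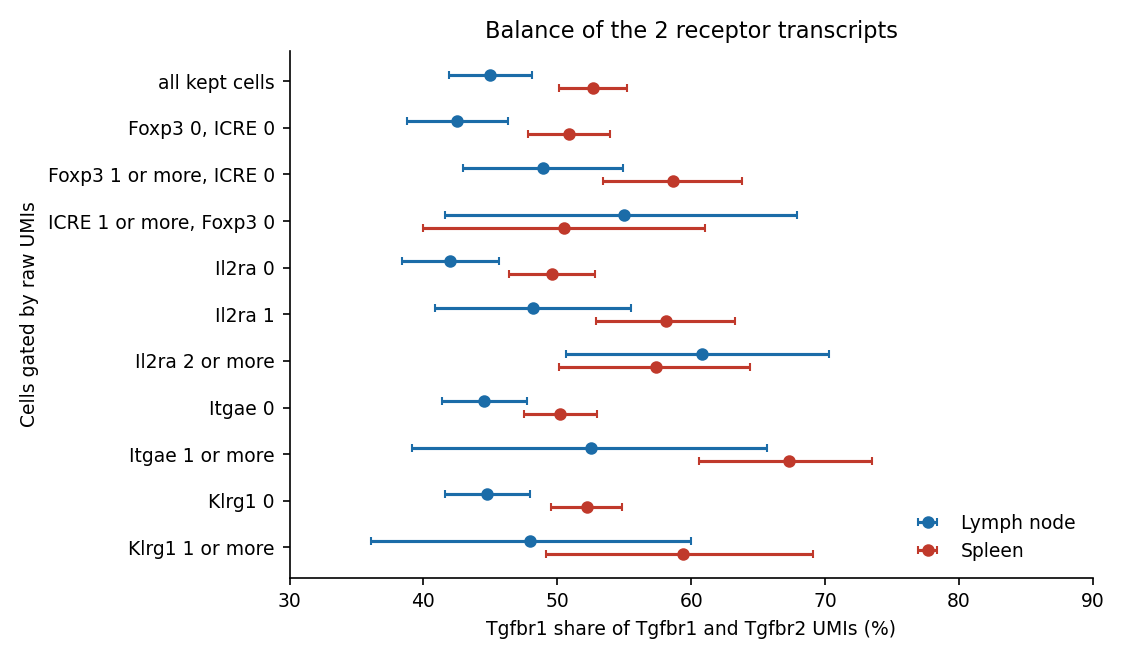
Tgfbr1 as a percentage of Tgfbr1 and Tgfbr2 UMIs in classes of gated cells; bars are exact binomial (Clopper-Pearson) 95% intervals, and the axis starts at 30%. The spleen Itgae class, at 67.3%, is the highest point, and the lymph node class with 0 Il2ra, at 42.0%, is the lowest.

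The genes most like Lrrc32 were sought by Pearson's r of log2(CPM + 10) over 15 strata of cells (library by Il2ra UMIs by any or no Foxp3 or ICRE UMI, at least 50 cells each), among 7959 genes with at least 200 UMIs and without the gating genes. The 8 highest were Casp8 (0.91), Gpr83 (0.91), Rabgap1l (0.90), Xxylt1 (0.88), Ltb (0.88), Xbp1 (0.87), Myc (0.87) and Cish (0.87). Casp8 encodes a caspase, Gpr83 a receptor of resting Treg cells, Ltb the surface cytokine lymphotoxin beta, Xbp1 a transcription factor of the secretory stress response and Cish an inhibitor of cytokine signalling. Myc, the floxed gene, was thus among them, at rank 7, but by Spearman's rho (0.85) it was not among the 8 highest. The other 9 members ranked lower: Tgfbr1 had r = 0.61 (rank 124) and Tgfb1 0.45, while Tgfbr2 had -0.44 and Smad4 -0.60. The strata were set by Il2ra, Foxp3 and ICRE UMIs, over which Lrrc32 already differed, so a high r partly restates those gates. The strata also share 2 libraries and differ in depth, and the correlations are descriptions.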

How the data were processed

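Droplet libraries of 1 lymph node and 1 spleen sample were made with a 10x 3′ V2 kit, per the labels' protocols. The deposited matrices hold UMI counts per gene and barcode, with a build (mm10) and a tool (Cell Ranger 3.0.1) named in the submitters' processing notes; the lowest total of a deposited barcode was 500 UMIs. Of the barcodes, 259 lymph node and 297 spleen ones failed the filter on genes and mitochondrial UMIs. Doublets were not called; an alternative left out the deepest 6% of cells.

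Counts were summed per class of cells gated on raw UMIs and scaled to CPM, in Python 3.11.15 with numpy 2.4.6 and scipy 1.17.1. Levels have exact Poisson, ratios exact conditional and shares exact Clopper-Pearson 95% intervals. Cells are not replicates, so nothing was tested and p-values are absent. The scripts were tested on simulated counts. The members, gates, gene lists and markers were chosen with earlier results of these data known. Named pathway genes were, in each gate and list, up to 4 with the largest absolute log2 ratio among those expected at 20 UMIs or more and of like sign in both libraries; not all of them are printed. For depth weights, cells were put in 10 bins of UMIs; for thinning, the random seed was 1. Alternatives covered cell filters, scaling, depth, other cell types and gate thresholds.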

Additional observations from a re-analysis of the deposited data

How the results depend on the processing

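No paired analysis was possible because each tissue has 1 library and the comparisons come from no test. Of 1210 alternative values of single members, 1158 moved by less than counting error. These include the setting with no minimum of expected UMIs, which leaves every ratio unchanged by construction. On the other side of 1 from the reported ratio lay 149 values. Of members past the fold, the one to do so was Skil in lymph node, at 0.975 (ICRE against Foxp3, depth-weighted) and at 1.20 (Itgae, thinned to 1200 UMIs). The Foxp3 and Il2ra counts in spleen were the same under all alternatives run. The tissue count of 2 became 3, with Smad7 added, for every deposited barcode and within cells with a Foxp3 or ICRE UMI. Counts of members past the fold moved by more than 1.5 times as follows. Depth-weighted, they were 1 for Foxp3, 1 for ICRE, 0 for ICRE against Foxp3, 2 for Il2ra and 1 for Itgae in lymph node, and 0 for ICRE in spleen; the Itgae member was Tgfbr1, higher at 1.62, with none of the 3 lower ones left. Without the deepest 6% of cells they were 1 for ICRE, 1 for ICRE against Foxp3, 3 for Il2ra and 1 for Itgae in lymph node, and 0 for ICRE against Foxp3 in spleen. Thinned to 1200 UMIs, which leaves fewer members to test, they were 1, 1, 0 and 0 for ICRE, ICRE against Foxp3, Itgae and Klrg1 in lymph node, and 1 for Klrg1 in spleen. Without cells with markers of other types they were 1 for ICRE against Foxp3, 2 for Il2ra and 0 for Itgae in lymph node. Within cells with 0 Il2ra, added after seeing the data, they were 1 for ICRE, ICRE against Foxp3, Itgae and Klrg1 in lymph node and 0 for ICRE against Foxp3 in spleen. Within cells with a Foxp3 or ICRE UMI they were 3 for Il2ra and 1 for Itgae in lymph node and 4 for Itgae in spleen. With a gate of 2 or more UMIs they were 0 for Itgae and 1 for Klrg1 in lymph node. Also added after seeing the data, they were 3 for Il2ra within lymph node cells of 0 Itgae and 0 Klrg1, and 0 for Itgae within those of 0 Klrg1. Thinned to 800 UMIs, Lrrc32 was caught in 3.72% and 7.20% of lymph node cells and 3.799% and 9.40% of spleen cells with 0 and with 2 or more Il2ra UMIs. By Spearman's rho, 5 of the 8 genes most like Lrrc32 were kept, and Myc was not kept. The cause of these shifts was not tested. Depth limits the small classes: the spleen level of Smad3 in ICRE cells rests on 7 UMIs.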
